A study of Homo sapiens with 6 samples.

Results

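Of the 58336 genes counted in A2780 cells, 42 were taken as interferon-stimulated genes and sensors of nucleic acids, by a list of gene symbols that was drawn up with earlier results of these data known. They comprise 6 sensors (*CGAS*, *STING1*, *RIGI*, *IFIH1*, *DHX58*, *IFI16*), 5 transcription factors (*STAT2*, *IRF1*, *IRF3*, *IRF7*, *IRF9*), 24 antiviral effectors, and 7 genes of ISG15, ubiquitin or ADP-ribose transfer (*ISG15*, *USP18*, *HERC5*, *HERC6*, *PARP9*, *PARP14*, *DTX3L*). A2780, an ovarian cancer line, was treated for 48 h with DMSO vehicle or with 6 µM TH588, an inhibitor of the Nudix hydrolase MTH1 that also stalls cells in mitosis. Polyadenylated RNA from replicates A, B and C of both treatments was sequenced, 3 libraries each and 6 in all, and the counts of reads per gene were deposited. Every library came from the same line, so the values describe 1 cell line at 1 dose and 1 time.

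Cells detect foreign or misplaced nucleic acid with dedicated sensors: cGAS binds DNA in the cytosol and signals through STING, while RIG-I (*RIGI*) and MDA5 (*IFIH1*) bind RNA and signal through MAVS. Both routes lead to the kinase TBK1 and to IRF3, which switches on interferon genes, and secreted interferon then acts through its receptor, the JAK1 and TYK2 kinases, and a complex that includes STAT2 and IRF9. That complex binds the interferon-stimulated response element (ISRE) upstream of antiviral genes, and some of these genes, *IFIT1* and *ISG15* among them, can also be switched on by IRF3 directly.

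Total counts were between 83144642 and 98176722 per library with DMSO and between 28537837 and 99074175 with TH588, where replicate A was the shallowest. *SNORD3A* made up 21.9% of that library and from 7.68% to 12.95% of the others. Levels are given as CPM, each count as a share of 1000000 counts of its library, after scaling by edgeR's TMM factors, and a count of 3 corresponded to between 0.0276 and 0.112 CPM. The label of an ovarian line was checked against 10 epithelial and ovarian carcinoma markers: *PAX8*, *CDH1* and *KRT19* had no library over 3 counts, whereas *VIM* was abundant and not called in edgeR's test. The treatment moved others of the 10: *EPCAM* (log2 fold change 2.87) and *KRT18* (0.88) were higher and *CDH2* (-0.37) was lower, and their part in the results was not tested. The 12 leukocyte markers summed to between 1.05 and 1.82 CPM with DMSO and between 1.62 and 1.94 CPM with TH588, and 4 of them were at 0 in every library. The kit does not mark strand, and 8 of the 42 genes share over 10% of their exon bases with another gene.

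The interferon set was expressed only in part, and what was expressed was mostly higher after TH588. Of the 42 genes, 28 had enough reads to be tested, 4 were low (*CGAS*, *STING1*, *IFI44L*, *CMPK2*), and 10 had no library over 3 counts: *IFI16*, *IFI44*, *MX1*, *MX2*, *OAS1*, *OAS2*, *OASL*, *RSAD2*, *XAF1* and *EPSTI1*. By edgeR's quasi-likelihood test at an adjusted p under 0.05, 20 of the 28 were higher after TH588, 1 was lower and 7 were not called, where 24.2% of all 15844 genes tested were higher and 25.3% were lower. A rise of at least 2-fold was called for 13 of them, against 9.75% of all genes tested. The p-values measure the spread between libraries, which the study describes as biological replicates. The 28 include 2 genes, *IFIT2* and *IFITM1*, that passed the filter on low counts only through the TH588 libraries. Both are among the 20 and the 13, so the counts describe the measurable genes and not the whole set. The median log2 fold change of the 28 was 0.79, beside 0.019 over all genes tested. Summed over the 42 genes, the level was 302.9, 307.0 and 311.1 CPM with DMSO and 486.3, 475.4 and 478.0 CPM with TH588. The sums did not overlap, and *IFITM3* alone made up between 25.9% and 33.5% of them. Without *IFITM3* they ranged from 210.2 to 216.8 CPM with DMSO and from 323.3 to 354.3 CPM with TH588.

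**Figure D1:**
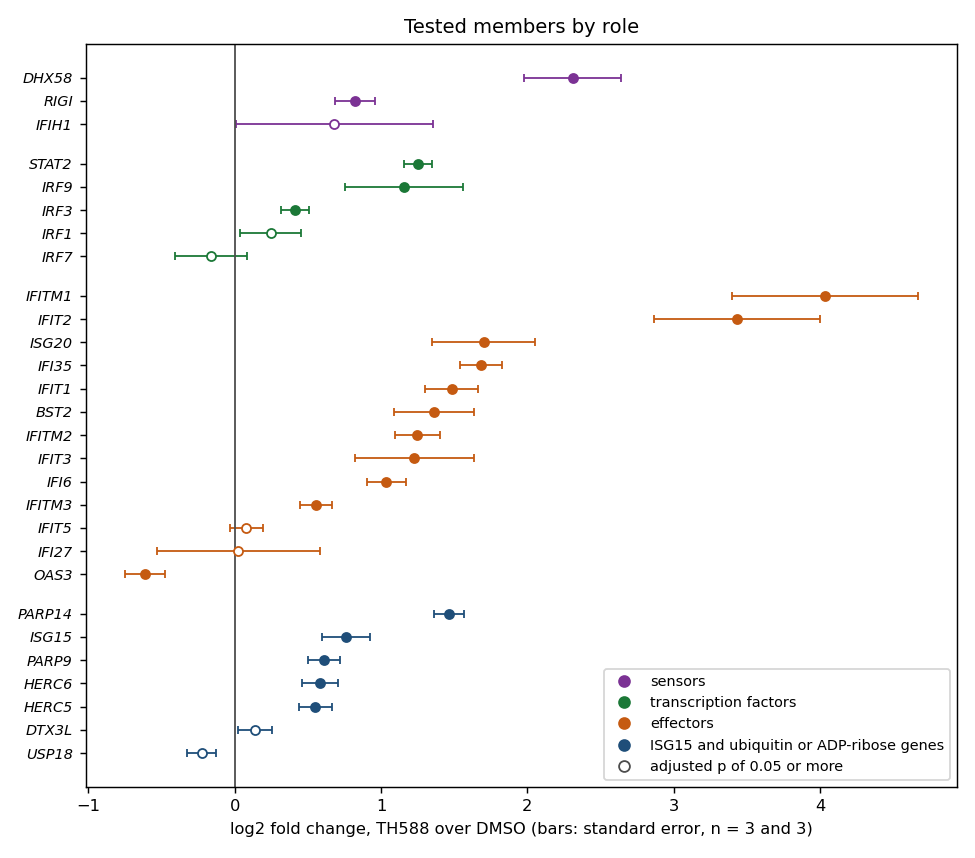
The log2 fold change of TH588 over DMSO for the 28 tested genes, grouped by role, with bars of 1 standard error; filled points have an adjusted p under 0.05 and open points do not. The 20 genes called higher lie to the right of 0, and *OAS3*, at -0.61, is the only gene called lower.

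The sequences upstream of 1 start site per gene were searched for an ISRE-like element, and examples from each class of response are printed. A promoter of 250 bases upstream of the RefSeq start (build GRCh38.p14) could be matched for 31 of the 42 genes. The ISRE core was searched on both strands as GAAA, any 2 bases, then GAAA, which reads TTTC, any 2 bases, TTTC on the other strand. It was present in 17 of the 31, and in 3.07% of all 27305 promoters of that length. The core of the interferon gamma-activated element GAS, searched on both strands as TTC, any 3 bases, then GAA, was present in 9 of the 31 and in 6.78% of all promoters. Among matched genes the ISRE core was found in 10 of the 16 that were higher, in *OAS3*, which was lower, in 3 of 5 that were not called, in 1 of 2 that were low and in 2 of 7 that were undetected. A match of letters is a description of the window and not a measured binding site. A window without a match does not show that the gene lacks the element, which may lie outside it or differ in letters. Below, 4 genes that were higher (*ISG15*, *IFIT1*, *IFITM1*, *PARP14*), the gene that was lower (*OAS3*), a gene that was not called (*IFIT5*) and a pair that was undetected (*IFI44*, *EPSTI1*) are shown 5′ to 3′ along the gene's strand, with the core nearest to the start in capitals; they were chosen after their values were seen.
ISG15, chr1:1013370-1013419, plus strand: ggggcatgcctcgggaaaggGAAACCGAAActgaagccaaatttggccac
IFIT1, chr10:89392500-89392549, plus strand: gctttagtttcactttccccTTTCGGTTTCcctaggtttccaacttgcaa
IFITM1, chr11:313980-314029, plus strand: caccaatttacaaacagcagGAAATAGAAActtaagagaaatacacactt
PARP14, chr3:122680790-122680838, plus strand: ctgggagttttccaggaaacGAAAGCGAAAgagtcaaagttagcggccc
OAS3, chr12:112938442-112938473, plus strand: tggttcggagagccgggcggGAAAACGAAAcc
IFIT5, chr10:89414529-89414567, plus strand: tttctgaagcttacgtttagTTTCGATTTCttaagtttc
IFI44, chr1:78649751-78649788, plus strand: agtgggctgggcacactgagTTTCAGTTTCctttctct
EPSTI1, chr13:42992262-42992311, minus strand: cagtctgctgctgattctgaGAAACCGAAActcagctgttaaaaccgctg
*ISG15*, *IFIT1*, *OAS3* and *IFIT5* each hold 2 matches, overlapping ones included, and the one farther from the start is not in capitals. The nearest core reads GAAA first in *ISG15*, *IFITM1*, *PARP14*, *OAS3* and *EPSTI1* and TTTC first in *IFIT1*, *IFIT5* and *IFI44*, so genes that were higher and genes that were undetected both had it in either orientation. Between the nearest core and the start lay 97 bases in *ISG15*, 93 in *IFIT1*, 30 in *IFITM1*, 19 in *PARP14*, 2 in *OAS3*, 9 in *IFIT5*, 8 in *IFI44* and 40 in *EPSTI1*.

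The levels of the set ranged from abundant genes to genes without reads, and the filter on low counts set the line between tested and untested ones. Compared per exon length, as RPKM (CPM over the gene's exon length in kilobases), *IFITM3*, which blocks entry of enveloped viruses, was the most abundant with a mean of 68.8 RPKM with DMSO and 101 RPKM with TH588. *USP18*, the protease that removes ISG15 from proteins and restrains the interferon receptor, followed at 18.4 and 15.7 RPKM. *IRF3* came next at 7.39 and 9.82 RPKM. With DMSO, *ISG15* (4.16 RPKM), *IFI6* (4.14 RPKM), *IFIT5* (4.04 RPKM), *STAT2* (3.75 RPKM), *IFITM2* (3.11 RPKM) and *PARP14* (2.82 RPKM) lay close together. After TH588, *STAT2* (8.93 RPKM), *IFI6* (8.45 RPKM), *PARP14* (7.79 RPKM), *IFITM2* (7.46 RPKM) and *ISG15* (7.03 RPKM) all lay above *IFIT5* (4.25 RPKM). Low levels were read beside 404 olfactory receptor genes, which an ovarian line should not use: 291 of them were at 0 in every library, and 95% had a mean at or under 0.0743 RPKM. Of the tested genes, *IFIT2*, *IFI27* and *IFIH1* lay under that level in their mean over all 6 libraries. With DMSO alone, *ISG20* (0.0382 RPKM) and *IFITM1* (0.0572 RPKM) also lay under it. *IRF9* (0.0767 RPKM), *DHX58* (0.0809 RPKM) and *IFIT3* (0.0895 RPKM) lay just above it with DMSO.

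**Figure D2:**
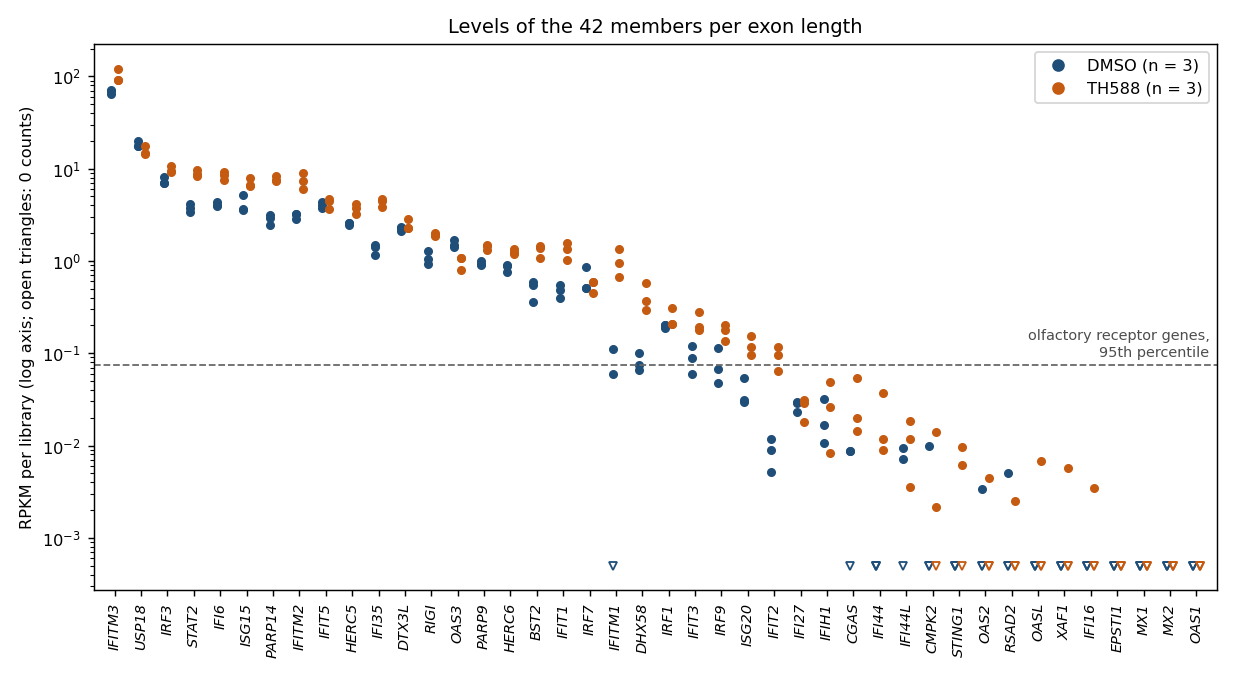
The level in RPKM, on a log axis, of each of the 42 genes in each of the 6 libraries; open triangles along the bottom mark 0 counts, and the dashed line marks 0.0743 RPKM, the 95th percentile of olfactory receptor genes. *IFITM3* and *USP18* lie highest, and *MX1*, *MX2*, *OAS1* and *EPSTI1* have 0 counts in all libraries.

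Among the sensors, *RIGI* and *DHX58* of the RNA-sensing helicases were measurable and higher after TH588, *IFIH1* was near the background, and the DNA sensors were nearly silent. *CGAS* (ENSG00000164430, chromosome 6, 73413515 to 73452276), the cytosolic DNA sensor, had 3, 3 and 0 counts with DMSO and 6, 9 and 5 counts with TH588, too few for a test. *STING1* (ENSG00000184584, chromosome 5), its signalling partner on the endoplasmic reticulum, had 0 counts in all DMSO libraries and 0, 4 and 2 with TH588. *IFI16*, a DNA sensor of the nucleus, had 2 counts in 1 TH588 library and 0 in the other 5. At these depths a difference between treatments was not detectable for *STING1* or *IFI16*, and *CGAS* was not tested.

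*RIGI* (ENSG00000107201, chromosome 9, 32455705 to 32526324), the sensor of RNA ends, was at 4.60, 4.04 and 5.53 CPM with DMSO and at 8.14, 8.23 and 8.69 CPM with TH588. Every TH588 library was above every DMSO library, and the log2 fold change was 0.82 with a standard error (SE) of 0.14 (adjusted p = 0.000343, edgeR's quasi-likelihood test). *DHX58* (ENSG00000108771, chromosome 17), which encodes LGP2, the regulatory member of the same helicase family, was at 0.389, 0.254 and 0.288 CPM with DMSO and at 2.24, 1.14 and 1.4 CPM with TH588. The groups did not overlap, with the shallow TH588 replicate A highest, and the log2 fold change was 2.31 (SE 0.33, adjusted p = 0.000105 by the same test). *IFIH1*, the sensor of long double-stranded RNA, was at 0.146, 0.0485 and 0.0747 CPM with DMSO and at 0.0374, 0.221 and 0.120 CPM with TH588. These values overlapped widely and the gene was not called, with a log2 fold change of 0.68 and a SE of 0.68.

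Of the 5 transcription factors, *STAT2* and *IRF9*, both of the ISRE-binding complex, and *IRF3* were higher, whereas *IRF1* and *IRF7* were not called. Beside them, 24.2% of all genes tested were higher and 25.3% lower. *STAT2* (ENSG00000170581, chromosome 12, 56341597 to 56360155) was at 25.3, 22.7 and 20.9 CPM with DMSO and at 51.5, 58.5 and 53.7 CPM with TH588. All TH588 libraries were more than 2 times any DMSO library, and the log2 fold change of 1.25 (SE 0.09) had an adjusted p of 6.64e-07 in edgeR's quasi-likelihood test. *IRF9* (ENSG00000213928, chromosome 14) was at 0.256, 0.436 and 0.182 CPM with DMSO and at 0.673, 0.515 and 0.767 CPM with TH588, with no overlap between the groups and a log2 fold change of 1.16 (SE 0.40, adjusted p = 0.0314). That call held in only 2 of the 6 fits that left out a library, being lost without DMSO A (adjusted p = 0.0676), DMSO C (0.0922), TH588 A (0.059) or TH588 C (0.134). It was also lost with the replicate letter as a block (0.0508), and 48.4% of its exon bases are shared with another annotated gene. Reads there may be left out of the counts or mixed between the genes. *IRF3* (ENSG00000126456), the factor that turns on interferon genes after sensing, was at 31.0, 26.7 and 26.4 CPM with DMSO and at 35.5, 40.9 and 35.4 CPM with TH588. The groups did not overlap, with a log2 fold change of 0.41 (SE 0.10, adjusted p = 0.00367), and 19.3% of its exon bases overlap *BCL2L12*.

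*IRF1*, a factor induced by interferon gamma, was at 1.47, 1.59 and 1.58 CPM with DMSO and at 2.39, 1.63 and 1.62 CPM with TH588. Only TH588 replicate A stood apart, and the log2 fold change was 0.25 (SE 0.21, adjusted p = 0.362), with 22.0% of its exon bases shared with antisense and other genes. *IRF7*, which amplifies the interferon response, was at 2.24, 1.35 and 1.32 CPM with DMSO and at 1.20, 1.55 and 1.56 CPM with TH588, which overlapped, with a log2 fold change of -0.16 (SE 0.25).

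Of 24 effectors, 13 were tested, beside 2 low and 9 undetected genes. Among the 13, 10 were higher, *OAS3* was lower, and *IFIT5* and *IFI27* were not called, where 24.2% of all genes tested were higher and 25.3% lower. *IFITM1* (ENSG00000185885, chromosome 11, 313506 to 315272), a membrane protein that restricts virus entry, was at 0, 0.121 and 0.0641 CPM with DMSO and 1.46, 0.717 and 1.03 CPM with TH588. DMSO libraries held few reads of it and no TH588 library came near them. The fitted log2 fold change, which depends on the prior count at such levels, was 4.03 (SE 0.64). *IFITM1* passed the filter on low counts only through the TH588 libraries. Its adjusted p of 0.000216 (edgeR's quasi-likelihood test) therefore adds no support for the rise. *IFITM2* (chromosome 11, 307631 to 315272) was at 4.37, 5.04 and 5.01 CPM with DMSO and at 13.8, 9.26 and 11.5 CPM with TH588, a log2 fold change of 1.25 (SE 0.15). *IFITM3* (chromosome 11, 319669 to 327537) was at 87.1, 96.8 and 94.4 CPM with DMSO and at 163, 123 and 124 CPM with TH588. The groups did not overlap, TH588 replicate A was the highest, and the log2 fold change was 0.56 (SE 0.11, adjusted p = 0.00111). The IFITM genes are close copies of each other, and 32.5% of the exon bases of *IFITM1* and 22.7% of those of *IFITM2* are shared between them, so how reads were divided among the copies is uncertain. For *IFITM3*, 21.3% of the exon bases overlap another annotated gene.

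The IFIT genes, whose proteins bind viral RNA and block its translation, lie in one stretch of chromosome 10 between 89283694 and 89421001 and *IFIT1*, *IFIT2* and *IFIT3* were higher, whereas *IFIT5* was not called. Whether the genes differed from each other was not tested. *IFIT1* (ENSG00000185745) was at 1.84, 2.52 and 2.22 CPM with DMSO and at 4.74, 6.17 and 7.27 CPM with TH588, a log2 fold change of 1.48 (SE 0.18, adjusted p = 3.11e-05, edgeR's quasi-likelihood test). *IFIT2* had 3, 4 and 2 counts with DMSO and 7, 52 and 33 counts with TH588, or 0.0365, 0.0485 and 0.0214 CPM against 0.262, 0.478 and 0.395 CPM. Its groups lay far apart, but its mean over all libraries was under that 95th percentile of olfactory receptor genes. The fitted log2 fold change was 3.43 (SE 0.57, adjusted p = 0.000322 by the same test). *IFIT2* too passed the filter only through the TH588 libraries, so that p-value adds no support for the rise. Other annotated genes overlap 10.3% of the exon bases of *IFIT2*. *IFIT3* was at 0.316, 0.158 and 0.235 CPM with DMSO and at 0.747, 0.506 and 0.467 CPM with TH588, a log2 fold change of 1.23 (SE 0.41, adjusted p = 0.0252). The call for *IFIT3* held in 2 of the 6 fits without a library and was lost without DMSO B (adjusted p = 0.0799), DMSO C (0.0548), TH588 A (0.0804) or TH588 B (0.0601). *IFIT5*, the most abundant of the 4 per exon length, was at 15.0, 16.4 and 17.3 CPM with DMSO and at 14.8, 17.7 and 18.7 CPM with TH588. It was not called, with a log2 fold change of 0.08 (SE 0.11, adjusted p = 0.597), and its upstream window printed above, like that of *IFIT1*, holds the ISRE core.

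Of the other effectors, *IFI35* (ENSG00000068079, chromosome 17, 43006725 to 43014456), a leucine zipper protein that pairs with NMI, was at 2.97, 2.78 and 2.30 CPM with DMSO and at 7.62, 9.16 and 8.85 CPM with TH588. The lowest TH588 library was more than 2 times the highest DMSO library, and the log2 fold change was 1.68 (SE 0.14, adjusted p = 1.72e-06, edgeR). *ISG20*, an exonuclease that degrades viral RNA, was at 0.219, 0.230 and 0.395 CPM with DMSO and at 0.710, 1.14 and 0.863 CPM with TH588, a log2 fold change of 1.70 (SE 0.35). *BST2*, which encodes tetherin and holds budding virus at the cell surface, was at 0.669, 0.3999 and 0.609 CPM with DMSO and at 1.61, 1.54 and 1.21 CPM with TH588, a log2 fold change of 1.36 (SE 0.27). *IFI6*, a survival protein of mitochondria, was at 3.78, 3.45 and 3.51 CPM with DMSO and at 6.46, 7.45 and 8.02 CPM with TH588, a log2 fold change of 1.04 (SE 0.13). All of these had groups that did not overlap, but they were named for being called at least 2-fold higher, so this is no separate support. *IFI27* was near the background in every library, between 0.0747 and 0.129 CPM, and was not called.

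**Figure D3:**
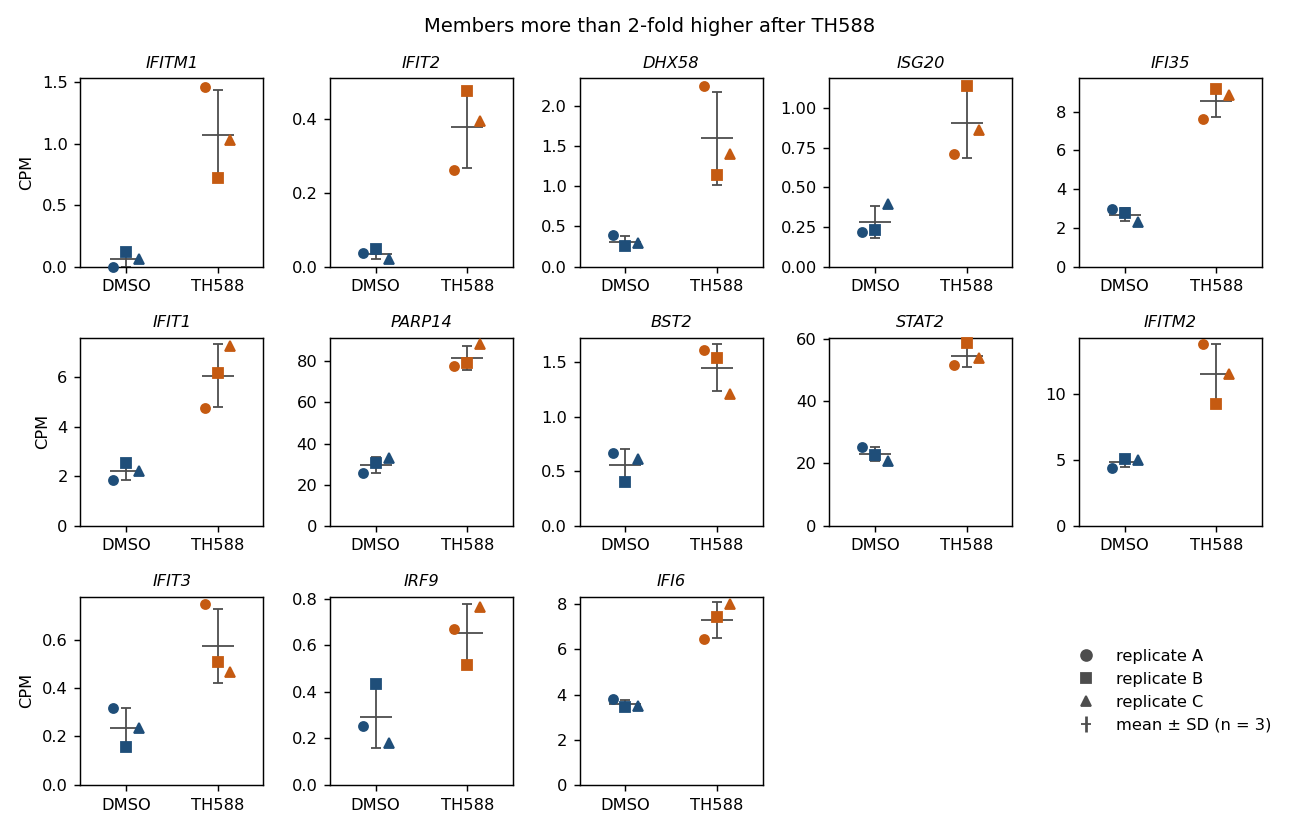
The level in CPM, each panel on a linear axis of its own from 0, of the 13 genes called at least 2-fold higher, with 1 point per library and bars of mean ± SD over the 3 replicates of each treatment. In *IFITM1* and *IFIT2* the DMSO points lie near 0. The points of the treatments do not overlap in any panel, but the panels were chosen by their call, so this is no separate support.

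Of the OAS enzymes, which make short chains of adenylate on sensing double-stranded RNA, only *OAS3* was measurable, and it fell. *OAS3* (ENSG00000111331, chromosome 12, 112938352 to 112973249), singled out after its values were seen as the only gene called lower, was at 12.3, 11.7 and 13.8 CPM with DMSO and at 6.58, 8.99 and 8.94 CPM with TH588. The groups did not overlap, and the log2 fold change was -0.61 (SE 0.14, adjusted p = 0.00269, edgeR's quasi-likelihood test). Its neighbour *OAS1* (chromosome 12, 112906777 to 112933222) had 0 counts in all 6 libraries, *OAS2* had at most 3 counts in any library, and *OASL* had reads in 1 library. *MX1* and *MX2*, dynamin-like antiviral GTPases, and *EPSTI1* were also at 0 in all 6 libraries, which allows between 0.0276 and 0.112 CPM in each. *RSAD2*, which encodes viperin, *IFI44* and *XAF1* had at most 3 counts in any library. Widely used markers of an interferon response were thus at or near 0 with both treatments, while *IFIT1*, *IFI6* and *ISG15* were measurable with both.

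Of the 7 genes of ISG15, ubiquitin or ADP-ribose transfer, all were tested, 5 were higher and 2 were not called. Over all genes tested, 24.2% were higher and 25.3% lower. *ISG15* (ENSG00000187608, chromosome 1, 1001138 to 1014541), a ubiquitin-like protein joined to other proteins, was at 3.46, 3.38 and 4.91 CPM with DMSO and at 6.28, 7.39 and 6.19 CPM with TH588. The groups did not overlap, and the log2 fold change was 0.76 (SE 0.16, adjusted p = 0.00216, edgeR). *HERC5*, the ligase that attaches ISG15, and its relative *HERC6* rose with log2 fold changes of 0.55 (SE 0.11) and 0.58 (SE 0.13). *USP18* (ENSG00000184979, chromosome 22) was at 42.5, 37.1 and 37.7 CPM with DMSO and at 30.7, 37.7 and 31.7 CPM with TH588, which overlapped, with a log2 fold change of -0.22 (SE 0.10, adjusted p = 0.0794). Without TH588 replicate B it was called lower, at -0.325, and reads of its near-identical copy on the same chromosome may be counted with it. *PARP14* (ENSG00000173193, chromosome 3, 122680618 to 122730840), a mono-ADP-ribosyltransferase, was at 25.5, 30.5 and 32.7 CPM with DMSO and at 77.5, 79.4 and 88.4 CPM with TH588. Its libraries were far apart by treatment and close within it, and its log2 fold change of 1.47 (SE 0.10) had an adjusted p of 4.03e-07. Its chromosome neighbours *PARP9* and *DTX3L*, whose proteins work as a complex, were called differently, which is no test of their difference: *PARP9* rose with a log2 fold change of 0.61 (SE 0.11), whereas *DTX3L* was not called at 0.14 (SE 0.12).

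The background also differed between the treatments. The olfactory receptor genes summed to between 9.47 and 11.2 CPM with DMSO and between 14.6 and 18.9 CPM with TH588, with a ratio of mean RPKM of 1.56. Of the 18 that could be tested, 4 were higher and 0 were lower, beside 24.2% and 25.3% of all genes tested. The 4 low genes of the interferon set together went from 0.0948 to 0.280 CPM in the mean. The part of this background, and of the larger *SNORD3A* share in TH588 replicate A, in the rises of genes under about 1 CPM was not tested. Genes with more than 3 counts numbered 26, 29 and 29 of 42 with DMSO and 28, 31 and 30 with TH588, and 25, 24 and 24 against 28, 28 and 28 once every library was thinned to the depth of the shallowest. In RNA from whole cultures, a larger share of cells with the genes on and more RNA per cell cannot be told apart.

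The 127 other genes of the pathway, listed by role, show whether the ligands, receptors and relays moved with the set, and their counts stand beside 24.2% higher and 25.3% lower over all genes tested. No ligand gene was measurable: of 21 interferon genes 0 were tested, 17 were at 0 in every library including *IFNB1*, and *IFNL1* alone was low, with 0, 2 and 1 counts with DMSO and 0, 6 and 5 with TH588. Of 10 receptors and kinases all were tested, 2 were higher and 0 were lower. *IFNAR1* (-0.05), *IFNAR2* (-0.40, with 83.2% of its exon bases overlapped), *JAK1* (-0.05) and *TYK2* (-0.11), the receptor chains and kinases for type I interferon, were not called in edgeR's test. *IFNAR2* was called lower without TH588 A (-0.558, adjusted p = 0.0254) and with limma-voom (-0.493, adjusted p = 0.0414). Their standard errors were between 0.09 and 0.20, so small differences were not detectable. Among 11 adaptors and kinases of the sensors, 4 were higher and 2 lower. *TBK1* was higher at 0.27 (SE 0.08, adjusted p = 0.0194), a call lost without DMSO A (adjusted p = 0.0647), DMSO C (0.0627) or TH588 C (0.0559) and with the replicate letter as a block (0.053), and *MAVS*, the adaptor of *RIGI*, was not called at 0.16 (SE 0.09) but was called higher without TH588 A (0.226, adjusted p = 0.0294).

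Of 12 sensors outside the set 7 were tested, of which 1 was higher and 5 were lower. *DHX9*, an RNA helicase, fell by 0.99 on the log2 scale (SE 0.08). *TLR3*, the endosomal sensor of double-stranded RNA and named after its value was seen, rose by 1.75 on the log2 scale (SE 0.23). Of 14 tested genes of nucleic acid disposal and restraint, 3 were higher and 9 lower. *NLRX1*, a mitochondrial protein that restrains MAVS, rose by 1.32 on the log2 scale (SE 0.11), whereas *RNASEH2B*, a subunit of the RNase that removes ribonucleotides from DNA, fell by 1.17 on the log2 scale (SE 0.10). Of 30 tested other interferon-stimulated genes, 14 were higher and 5 lower: *PML*, of nuclear bodies, rose by 1.18 on the log2 scale (SE 0.11) and *PNPT1*, a mitochondrial RNA exonuclease, fell by 0.98 on the log2 scale (SE 0.07). Of 5 tested cytokine and NF-κB genes, 3 were higher and 1 lower. Over the 78 tested of the 127, 27 were higher, 22 lower and 29 not called, beside 24.2% higher and 25.3% lower over all genes tested, and their median was 0.16 on the log2 scale.

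**Figure D4:**
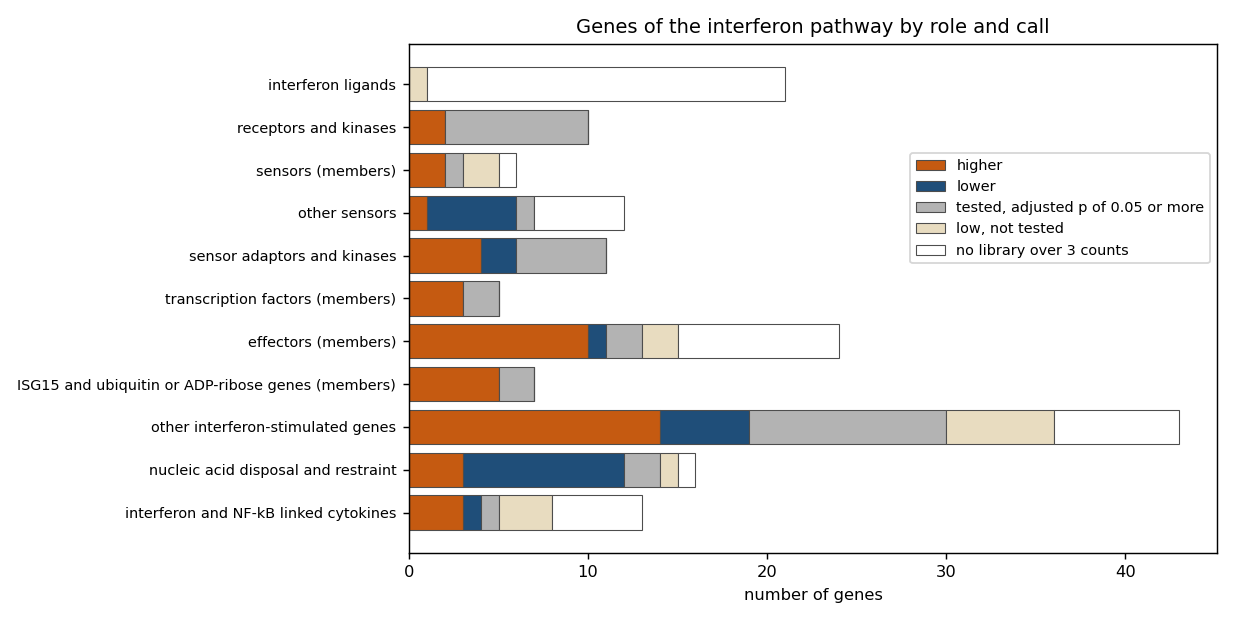
The number of genes in each list that were higher, lower, not called, low or undetected after TH588, as stacked bars. The 4 groups of the interferon set have 20 higher and 1 lower in all, the 21 ligands have no tested gene, and the other sensors and the disposal genes have more lower than higher.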

How the data were processed

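A2780 cells treated with DMSO or TH588 were sequenced in 3 replicates each. Per the labels, libraries came from a TruSeq kit without strand marking, and the submitters' processing notes name TopHat, featureCounts 1.4.6 of Subread, and GRCh38. The authors deposited raw counts per gene without normalization. The study's methods speak of UCSC models, but genes carry Ensembl identifiers, and how reads of overlapping genes were counted is not given in the sources used here. Of 272 protein-coding genes wholly overlapped by exons of other genes, 69.1% were at 0 in every library, beside 18.5% of those with no overlap. Whether reads on shared exons were left out of the counts was not tested. The table also holds no column of the authors' own comparisons.

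Counts were compared with edgeR 4.0.16 in R 4.3.3: filterByExpr, which kept 15844 genes (a CPM of about 0.118 in at least 3 libraries), TMM, and the quasi-likelihood test over all 6 libraries, adjusted by the Benjamini-Hochberg method over all genes tested (threshold 0.05). Standard errors are the log2 fold change over the square root of F. CPM used TMM-scaled totals, and RPKM divided CPM by exon length. Genes with no library over 3 counts were called undetected, and others short of the filter low. Total counts and this floor set the precision, and floors cover counting error only. Replicates differed beyond sampling noise (chi-square over its degrees of freedom 23.5 to 165 across pairs).

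The genes and lists were chosen with earlier results of these data known. Values per library are given for tested genes with an adjusted p under 0.05 and a log2 fold change of at least 1 in size, for all sensors and transcription factors, and for the 8 most abundant per length. Of the other pathway genes, the 3 largest rises and 3 largest falls (mean log2 CPM of at least 2, no overlap between groups) are named, with *IFNB1*, *IFNAR1*, *IFNAR2*, *JAK1*, *TYK2*, *MAVS* and *TBK1*; items that this rule would also name are not reported here. Of the 10 fibroblast and endothelial markers, the sum was between 1591 and 1919 CPM with DMSO and between 1882 and 2622 CPM with TH588. *COL3A1* made up most of it, at 1573 to 1901 CPM with DMSO and 1862 to 2600 CPM with TH588. The endothelial markers *PECAM1*, *VWF*, *CDH5* and *KDR* were low or undetected. Of the 6 markers tested, 3 were higher and 0 lower, beside 24.2% and 25.3% of all genes tested. The higher ones were *COL1A2* (log2 fold change 1.37), *PDGFRB* (0.61) and *COL3A1* (0.39), and their part in the results was not tested. Promoter sequences are RefSeq's for GRCh38.p14. The alternatives tried were a replicate block, fits without 1 library, fits without *SNORD3A*, size factors from DESeq2, library size only, no filter, a minimum of 10 counts per library, limma-voom (limma 3.58.1), DESeq2 1.42.0 and an adjusted p under 0.01. The procedure was tested on simulated data, but no outcome of that is given here, so it lends the results no weight.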

Additional observations from a re-analysis of the deposited data

How the results depend on the processing

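The 20 genes called higher were 18 to 20 under every alternative, and 18 to 19 with a library left out in turn. Requiring at least 10 counts in every library removed *IFIT2* and *IFITM1* from the test, and the calls of *IFIT3* and *IRF9* were lost at an adjusted p under 0.01. The genes called lower were 1 to 2 with a library left out, with *USP18* added without TH588 replicate B, and 1 in every other setting. The median log2 fold change of the tested genes was 0.903 with library size only, 0.973 with no filter, where 38 of the set are tested, and between 0.718 and 0.971 with a library left out. With library size only, the median of all genes tested moved from 0.019 to 0.126, and 60.4% of calls were higher against 48.9%. That setting also turned the sign of *EIF2AK2* (0.022), *IFNAR1* (0.055) and *JAK1* (0.058), none of which was called in any setting. With a library left out, uncalled genes crossed 0: *IFI27* from -0.065 to 0.152, *IFNAR1* from -0.140 to 0.014, *JAK1* from -0.132 to 0.030 and *IRF7* from -0.287 to 0.149. *IFI27* was at -0.006 with DESeq2 and with the replicate block. The causes were not tested. Over 69 genes of the set and its pathway, not all of them named above, and all settings, 972 values kept direction and side of the threshold, 40 lost a call, 5 gained one and 11 changed sign. The lost calls were those of *IFIT3*, *IRF9* and *TBK1* and of *CXCL11*, *IL10RB*, *LRRFIP1*, *LY6E*, *MYD88*, *TBKBP1* and *TRIM38*; the gained ones were of *IFNAR2*, *IRF5*, *MAVS* and *USP18*.

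No shared effect of the replicate letter was seen: deviations from the group means correlated at -0.174, -0.204 and -0.013 for A, B and C. With 3 libraries a group, this cannot show that the libraries were unpaired. With the replicate block, 7195 genes were called against 7852, and 19 of the set were higher and 1 lower, *IRF9* being lost at an adjusted p of 0.0508.

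Of the 42 genes 14 could not be tested, 4 of them with 0 counts in every library, and in the shallowest library a gene at 0 could have been at up to 0.112 CPM. With 3 libraries a group, the log2 fold changes of the 8 tested genes lowest with DMSO carried standard errors of 0.33 to 0.68. Reads of the IFITM copies, and of genes that share exons, cannot be divided from the counts. The results hold for 1 cell line at 1 dose and time.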

Other observations

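Further genes of the pathway lists were singled out after their values were seen. *TRIM22*, an interferon-inducible antiviral protein, rose from 0.0977 ± 0.0871 CPM with DMSO to 1.37 ± 0.0956 CPM with TH588 (SD, n = 3 per treatment), with a log2 fold change of 3.80 with a standard error of 0.47 and an adjusted p of 3.66e-05 in edgeR's quasi-likelihood test. Like *IFIT2* and *IFITM1*, it reached the filter's level in all 3 libraries only with TH588, and it would not have been tested on the DMSO libraries alone. *BATF2*, an interferon-inducible transcription factor, rose from 0.595 ± 0.124 to 3.06 ± 0.433 CPM, a log2 fold change of 2.35. *ICAM1*, an adhesion protein under NF-κB control, rose from 0.202 ± 0.0729 to 0.681 ± 0.112 CPM, a log2 fold change of 1.73, while *NFKBIA*, the inhibitor of NF-κB, fell by 0.53 on the log2 scale. *SAMHD1*, which degrades nucleotides, went from 86.6 ± 2.99 to 50.3 ± 1.32 CPM and fell by 0.78 on the log2 scale. *ADAR*, which edits double-stranded RNA, fell by 0.45 on the log2 scale. Of 7 innate immune genes listed as p53 targets, 5 were tested and 4 were higher (*TLR3*, *IRF9*, *ISG15* and *TRIM22*), beside 24.2% of all genes tested, 1 was not called (*IRF5*, at 0.76), and 2 were undetected (*IFI16* and *CCL2*). The call of *IRF9* was lost in 4 of 6 fits without a library and with the replicate block. That list was written with earlier results of these data known, and 3 of the 7 belong to the interferon set described above.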
